A study of Rattus norvegicus with 6 samples.

Results

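Ndfip1, Ndfip2, Trim2 and Mex3c are genes of the ubiquitin system, which tags proteins for degradation or sorting. They were chosen by name, with earlier results of these data known. Ndfip1 (NM_001013059, probe A_44_P166216), Ndfip2 (NM_001108390, probe A_44_P1047638), Trim2 (NM_001108552, probe A_44_P761041) and Mex3c (NM_001107377, probe A_43_P20016) each have 1 catalogue probe of the array maker, identified by the RefSeq accession printed beside the probe. Further probes of these genes may be among those that carry no gene name here. Ndfip1, Ndfip2, Trim2 and Mex3c are 4 of the 30 genes that could be named by such an accession, among 38804 probes other than controls. Their levels were compared between islets of the pancreatic head, the part next to the duodenum, and islets of the tail, the part next to the spleen, which had been isolated separately from male rats. No treatment group is described, and the labels give no strain and no age, although every sample title begins with 24W, which they do not explain. There were 3 samples of each region, numbered 1 to 3, with a single-colour array for each. Whether the numbers stand for separate animals is not stated, so a p-value here speaks only of the spread among these arrays, which may be technical.

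Ubiquitin is attached to a protein by an E3 ligase, which chooses the substrate. Ligases of the Nedd4 family, which carry a catalytic HECT domain, bind their substrates through WW domains that recognise short proline-tyrosine (PY) motifs. Many substrates lack such a motif, and Ndfip1 and Ndfip2, small membrane proteins of the Golgi apparatus and endosomes, carry PY motifs themselves and act as adaptors that recruit and activate these ligases. Trim2 and Mex3c are ligases of the other large class, in which a RING domain brings the ubiquitin-loaded conjugating enzyme to the substrate. Trim2 is best known from neurons, where it ubiquitinates the light neurofilament chain, and Mex3c binds messenger RNA through KH domains and promotes the decay of its targets. In hormone-secreting cells such as those of the islet, the ubiquitin-proteasome system disposes of misfolded secretory proteins.

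All 4 genes had a higher mean in head than in tail islets after each array was scaled to its 75th percentile, and none of these differences passed the limma test over all probes at an adjusted p of 0.05, as 0% of probes did. Ndfip2 differed most, and it was the only one of the 4 genes whose head and tail arrays did not overlap, as for 5.09% of all probes with the head higher. Trim2 differed by nearly as much, with a wider spread between replicates. Mex3c and Ndfip1 differed less, and the difference of each was below 0 under 1 of the other scalings tried. After scaling to the 75th percentile most probes leaned the other way. The mean was higher in head islets for 38.8% of the 32182 tested probes. Their median difference was -0.23, against 0.03 with arrays centred on their median. The array maker's catalogue probes, 50 of the 38804, did not share this lean where they could be named: of the 23 other named genes tested, 18 had a higher mean in head islets, with a median difference of 0.52 over the 23. The differences of Slc28a2 (1.23), Pld1 (1.00), Enpp1 (0.95) and Cyp2e1 (0.89) were larger than that of Ndfip2 (0.84).

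RefSeq promoter windows of assembly GRCr8 were held for 3 of the 4 genes, Mex3c having no entry in the table used. The windows of Ndfip2 and Trim2 are shown because these were the genes with the largest differences. Each is the 250 bases before a transcript start, read 5′ to 3′ on the strand of the gene, with matches to 6 searched motifs in capitals.
Ndfip2, chr15:88446682-88446931, plus strand: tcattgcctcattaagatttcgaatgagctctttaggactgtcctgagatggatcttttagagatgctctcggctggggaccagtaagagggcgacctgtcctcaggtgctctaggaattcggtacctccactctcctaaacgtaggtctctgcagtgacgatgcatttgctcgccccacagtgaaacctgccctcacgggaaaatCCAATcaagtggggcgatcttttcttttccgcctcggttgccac
Trim2, chr2:171862445-171862694, minus strand: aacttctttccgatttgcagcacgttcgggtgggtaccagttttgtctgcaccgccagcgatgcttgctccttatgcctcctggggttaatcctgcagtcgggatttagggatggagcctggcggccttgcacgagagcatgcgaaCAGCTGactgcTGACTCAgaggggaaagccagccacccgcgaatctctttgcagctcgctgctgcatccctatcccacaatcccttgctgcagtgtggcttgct

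The motifs were searched on both strands. They were the CCAAT box by its name, the GC box spelled GGGCGG, the TATA box spelled TATAAA, the AP-1 site spelled TGACTCA, the E-box spelled CACGTG and its variant spelled CAGCTG. No match overlapped another. The Ndfip2 window held 1 of them, a CCAAT that begins 44 bases before the start, a motif present in 34.0% of the 33469 windows of this length in the table. The Trim2 window held CAGCTG 104 bases and TGACTCA 93 bases before the start, motifs found in 12.0% and 4.05% of all windows. The Ndfip1 window, on the plus strand of chromosome 18, was richer in G and C (72.8%, with 31 CpG dinucleotides) than those of Ndfip2 (51.6%, 11 CpG) and Trim2 (57.2%, 12 CpG), against a median of 51.2% and 5 CpG over all windows. It held GGGCGG 2 times, 112 and 91 bases before the start, and this motif is in 30.5% of windows. A motif match is a description of the letters and not evidence of a bound factor. All 3 starts lie inside the span of their genes in the same assembly, so each gene has at least 1 further transcript start upstream, and the array signals do not say which start was used.

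Ndfip2 was measured at 2.08, 2.03 and 2.41 in head replicates 1, 2 and 3 and at 1.47, 1.10 and 1.45 in tail replicates 1, 2 and 3 (log2 signal minus the 75th percentile of the array). The lowest head array thus lay 0.56 above the highest tail array. Of all probes, 19.8% showed no overlap in the opposite direction, with the head lower. Head islets averaged 2.17 ± 0.21 and tail islets 1.34 ± 0.21 (SD, 3 arrays a region), a 1.79-fold higher head level with a log2 difference of 0.84 (SE 0.31, 95% interval 0.12 to 1.55, unadjusted p = 0.0267, limma adjusted p = 0.235). An unadjusted p under 0.05 was found for 19.2% of all probes and, with the head higher, for 3.81%. The head array was the higher in each of the 3 same-numbered pairs, by 0.61, 0.93 and 0.97, as it was for 17.6% of all probes, while it was the lower in all 3 pairs for 38.1%. In bulk islet RNA a different number of cells that express a gene and a different amount of its RNA per cell cannot be told apart.

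Ndfip1, the paralogue of Ndfip2, stood at 2.99, 2.37 and 2.58 in head replicates 1, 2 and 3 and at 2.80, 2.15 and 1.97 in tail replicates 1, 2 and 3. Tail replicate 1 was higher than head replicates 2 and 3, so the regions overlapped, although the head was higher within each same-numbered pair, by 0.19, 0.22 and 0.60. Head islets averaged 2.64 ± 0.31 and tail islets 2.31 ± 0.43 (SD, 3 arrays a region). The log2 difference of 0.34 was smaller than its SE of 0.36, with a 95% interval of -0.50 to 1.17 (limma adjusted p = 0.568). Without tail replicate 1, the array that stands apart from the other tail arrays over all probes (Pearson r 0.934 and 0.931 with them across probes, against 0.975 with head replicate 1), it was 0.58. Without head replicate 1 it was 0.17, and without tail replicate 3 it was also 0.17. Over all probes head replicate 2 likewise stood near the other region. Its r was 0.967 and 0.971 with tail replicates 2 and 3, against 0.968 and 0.956 with head replicates 1 and 3.

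**Figure D1:**
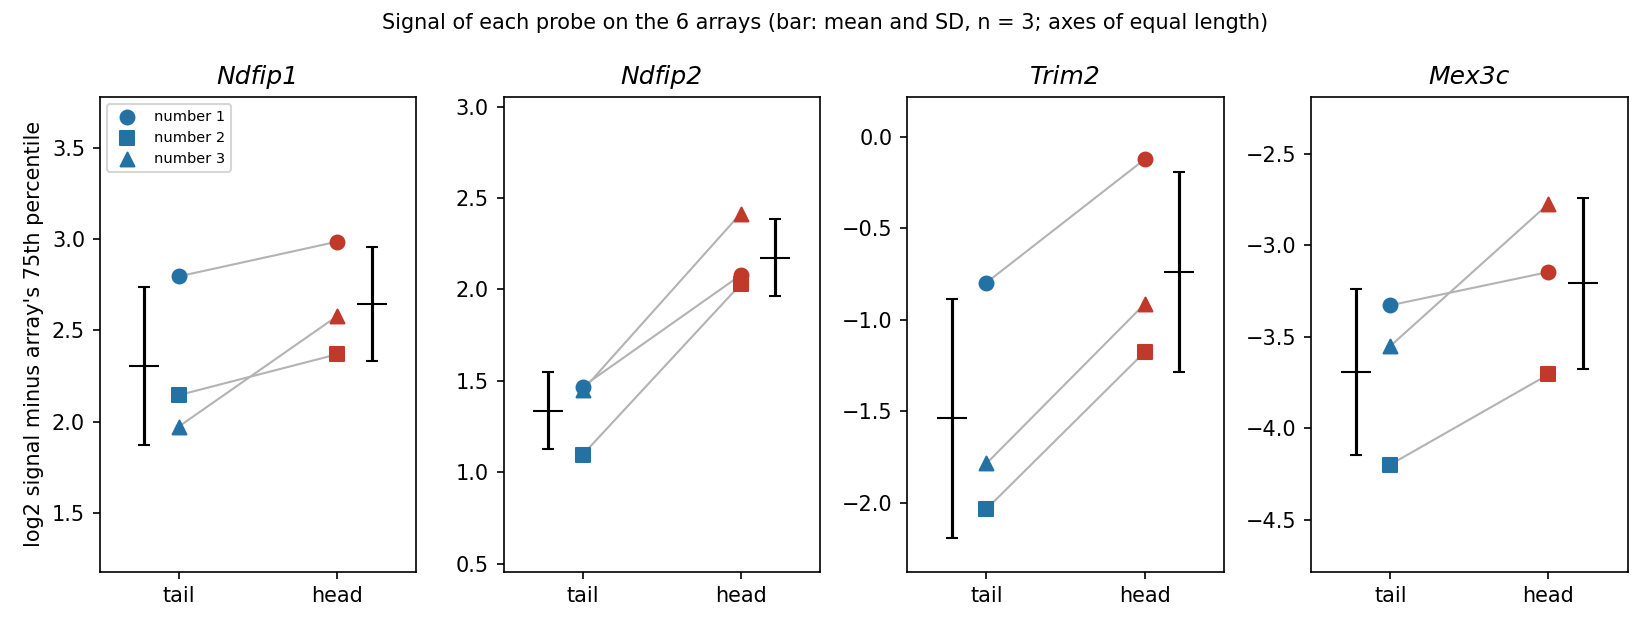
Log2 signal of each probe minus the 75th percentile of its array (vertical axis) in tail (blue) and head (red) islets; symbols are replicate numbers, grey lines join same-numbered arrays, and black bars are the mean and SD (n = 3). Every grey line is higher at its head end in all 4 panels, and only for Ndfip2 do all head arrays, from 2.03 to 2.41, lie above all tail arrays, from 1.10 to 1.47.

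Trim2 stood at -0.12, -1.18 and -0.91 in head replicates 1, 2 and 3 and at -0.80, -2.03 and -1.78 in tail replicates 1, 2 and 3. Within each number the head array was the higher, by 0.67, 0.86 and 0.87, and the number 1 arrays were the highest of both regions. Tail replicate 1 was therefore above head replicates 2 and 3, and the regions overlapped. On tail replicates 2 and 3 the probe was dim, with a median spot signal of 2.77 and 3.32 times its local background. The other arrays had 8.48 to 16.1 times. Head islets averaged -0.74 ± 0.55 and tail islets -1.54 ± 0.65 (SD, 3 arrays a region), a log2 difference of 0.80 (SE 0.42, 95% interval -0.17 to 1.77, limma adjusted p = 0.308), or 1.74-fold. Without head replicate 1 the difference was 0.49. Without tail replicate 1 it was 1.17, with an adjusted p of 0.0638. With all arrays and the replicate number as a block, the SE of the difference of 0.80 was 0.21 (limma adjusted p = 0.0728).

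Mex3c was measured close to its local background, with a median spot signal of 1.45 and 1.68 times that background on tail replicates 2 and 3 and 4.37 times at most, on head replicate 3. It stood at -3.15, -3.71 and -2.77 in head replicates 1, 2 and 3 and at -3.33, -4.20 and -3.55 in tail replicates 1, 2 and 3. The number 2 array was the lowest in each region, and head replicate 2 was below tail replicates 1 and 3. The pair differences were 0.18, 0.49 and 0.78, and head islets averaged -3.21 ± 0.47 and tail islets -3.69 ± 0.45 (SD, 3 arrays a region). The log2 difference was 0.48 (SE 0.35, 95% interval -0.32 to 1.28, limma adjusted p = 0.413). It was 0.27 without head replicate 3, 0.23 without tail replicate 2 and 0.73 without head replicate 2.

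Each of the 4 probes was printed in 10 spots per array, which shows how precisely an array measured it. Of the 240 spots, 239 were well above background, 0 were saturated and 9 were left out as outliers, 5 of them of Mex3c. The SD of the remaining spots of an array had a median of 0.08 log2 units for Ndfip1, 0.11 for Ndfip2, 0.08 for Trim2 and 0.13 for Mex3c, and its highest value was 0.19, for Mex3c on tail replicate 1. Arrays of a region therefore differed by more than their spots did, with SDs of 0.21 to 0.65 between arrays. The 10 spots share the labelling and hybridisation of their array and are not replicates of a region.

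**Figure D2:**
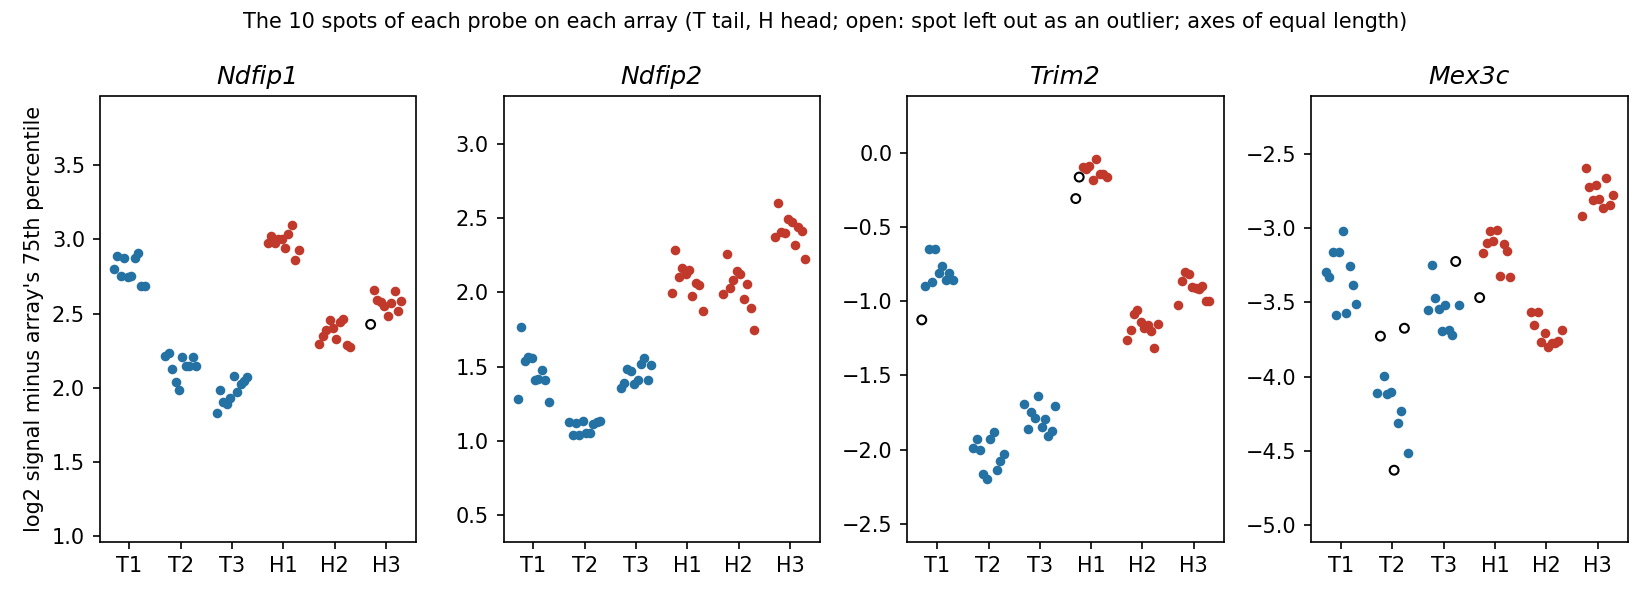
Log2 signal minus the 75th percentile of the array (vertical axis) of each of the 10 spots per probe on tail arrays 1 to 3 (T1 to T3, blue) and head arrays 1 to 3 (H1 to H3, red); open circles are the 9 spots left out as outliers. The spots of an array form a tight group for Ndfip1, Ndfip2 and Trim2 and scatter most for Mex3c, whose spot SD reached 0.19.

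The 4 genes differed in how much of their variation followed the region. For Ndfip2, 85.6% of the sum of squares over the 6 arrays lay between the regions and 11.2% between the replicate numbers. A region share at least as large was found for 4.19% of all probes, whose median was 32.3% for the region and 45.0% for the number. For Ndfip1, Trim2 and Mex3c the region took 23.1%, 39.7% and 29.2%, and the number took 69.8%, 59.8% and 63.4%. There were more replicate numbers than regions, which by itself gives the number a larger share. Each share is therefore to be set against its median over all probes. The remainder for Trim2 was 0.504%, so its 6 values were nearly the sum of a region step and a number step. After quantile normalization Ndfip2 had 73.1% between regions, Mex3c 51.4%, Trim2 44.9% and Ndfip1 1.59%, against a median of 25.4% over all probes. The region share of Mex3c was then larger than its number share of 39.2%.

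A ratio of 2 probes on the same array does not change when the whole array is scaled up or down, and its head and tail values show whether the genes differed between regions by unequal amounts. The log2 ratio of Ndfip2 to Ndfip1 was -0.91, -0.34 and -0.16 in head replicates 1, 2 and 3 and -1.33, -1.05 and -0.53 in tail replicates 1, 2 and 3. It was higher in the head array of each same-numbered pair, by 0.42, 0.71 and 0.36, while the regions overlapped. A ratio to Ndfip1 that was higher in the head in all 3 pairs was found for 7.67% of all probes. The ratio was thus 1.41-fold higher in head islets, a log2 difference of 0.50 (exact two-sided permutation p = 0.2, adjusted p = 0.6 over the 6 pairs of genes). Exact sign flips of the 3 pair differences gave p = 0.25, the smallest that 3 pairs can give. Without tail replicate 1 the difference was 0.32, and it was 0.72 without tail replicate 3. The levels of the 2 probes themselves were not compared, since different probes bind with different strength.

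The difference of Trim2 was also larger than that of Ndfip1. Its log2 ratio to Ndfip1 was -3.11, -3.55 and -3.49 in head replicates 1, 2 and 3 and -3.59, -4.18 and -3.76 in tail replicates 1, 2 and 3, without overlap. Such a ratio to Ndfip1, higher in head islets without overlap, was found for 1.68% of all probes. The difference was 0.46 on the log2 scale, with an exact permutation p of 0.1 (adjusted p = 0.6 over the 6 pairs of genes), the smallest that 3 arrays against 3 allow. The pair differences were all above 0, and their exact sign flips gave p = 0.25. The difference was 0.29 without tail replicate 2, 0.92 after quantile normalization and 0.94 in the authors' deposited table, and it turned to -0.09 with normexp background correction.

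Ndfip2 and Trim2 differed from each other by little. The ratio of Ndfip2 to Trim2 moved by 0.04 between regions (exact permutation p = 0.8), with pair differences of -0.06, 0.07 and 0.10, but it was -0.38 after quantile normalization. The ratios of Ndfip2 and Trim2 to Mex3c were higher in the head by 0.35 and 0.32 and in all 3 pairs (exact permutation p = 0.3 and 0.5). Without head replicate 2 the ratio of Ndfip2 to Mex3c differed by 0.18. The ratio of Trim2 to Mex3c differed by 0.04 without head replicate 1, by 0.12 without tail replicate 3 and by 0.62 without head replicate 3. That of Mex3c to Ndfip1 was higher in the head by 0.15 and in 2 of 3 pairs (p = 0.6, exact). None of the 6 ratios passed, and with 3 arrays a region none could have.

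**Figure D3:**
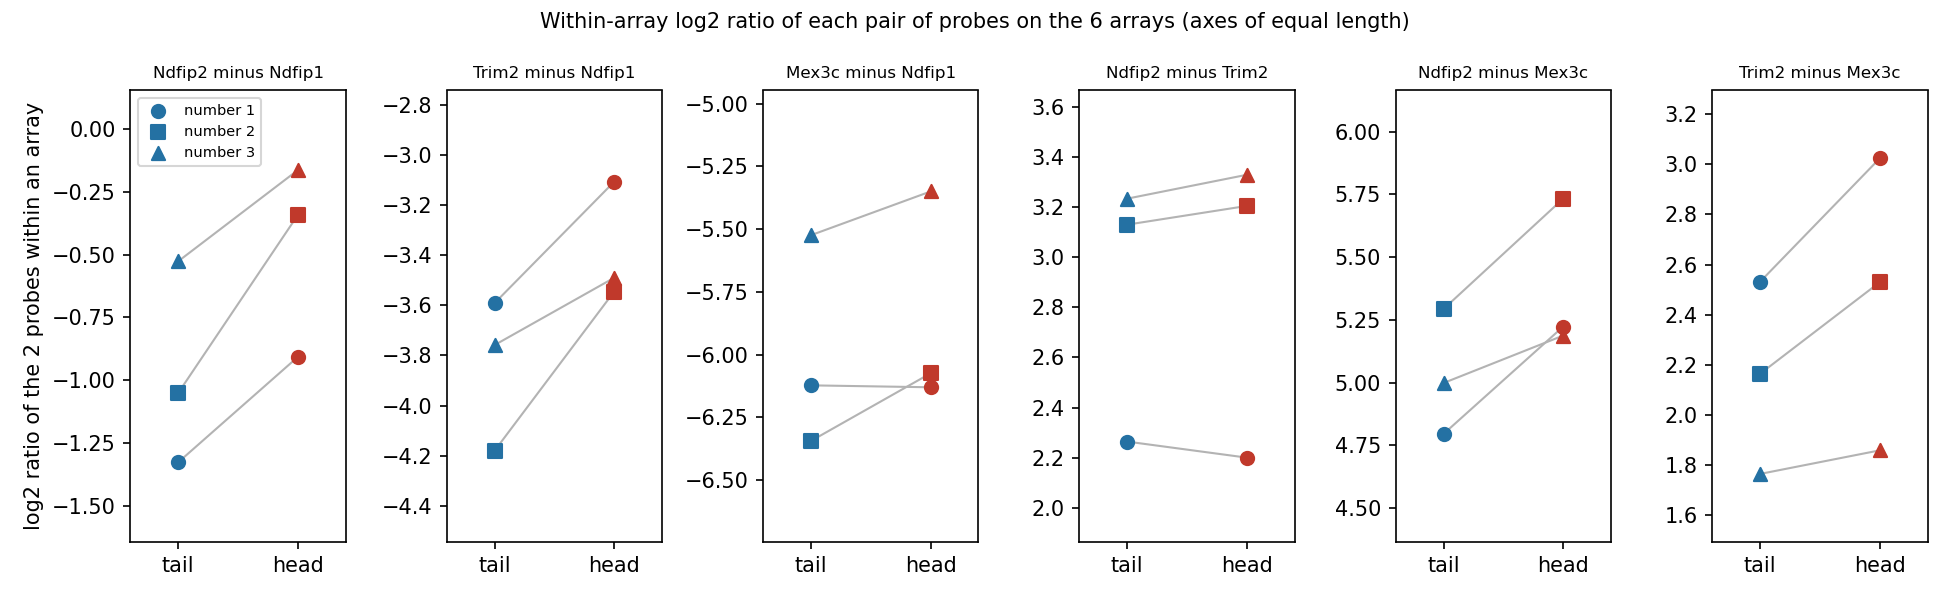
Log2 ratio of 2 probes within an array (vertical axis) in tail (blue) and head (red) islets for the 6 pairs of genes; symbols are replicate numbers and lines join same-numbered arrays. The ratio of Ndfip2 to Ndfip1 is higher in the head in all 3 pairs, by 0.36 to 0.71. That of Ndfip2 to Trim2 stays nearly level in these values, with changes of -0.06 to 0.10, but not with other processing.

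The size of each difference depended on the scaling. The 75th percentile of the processed signal was 264, 114 and 117 on tail arrays 1, 2 and 3 and 203, 207 and 259 on head arrays 1, 2 and 3. After quantile normalization, which gives all arrays the same distribution, Trim2 differed by 0.96, Mex3c by 0.86, Ndfip2 by 0.58 and Ndfip1 by 0.04, so that all 4 kept a higher mean in the head, as did 46.2% of all probes, Ndfip1 stood near the median of all probes (-0.06) and Trim2 rather than Ndfip2 led. In the authors' deposited table of log2 values Ndfip2 was 9.35, 9.42 and 9.74 in head replicates 1, 2 and 3 and 8.82, 8.73 and 9.17 in tail replicates 1, 2 and 3, again without overlap, as for 6.47% of probes with the head higher in that table. With arrays centred on their median the 4 genes differed by 0.60 (Ndfip1) to 1.10 (Ndfip2), and the median of all probes was 0.03. With normexp background correction Mex3c turned to -0.15 and Trim2 was at 0.35. The cause was not tested.

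Beside these shifts, other probes of the same arrays moved as well. The 41 catalogue probes detected above background on every array, the 4 genes among them, had a median of 0.21, -0.02 and 0.11 in head replicates 1, 2 and 3 and of -0.19, -0.53 and -0.23 in tail replicates 1, 2 and 3, relative to the 75th percentile. With arrays centred on that median, Ndfip2 differed by 0.42 (SE 0.31), Trim2 by 0.38 (SE 0.38), Mex3c by 0.07 (SE 0.33) and Ndfip1 by -0.08 (SE 0.35), so the direction of Ndfip1 turned. The 4 E1A spike-in probes, for control transcripts meant to be added to samples, were lower against the 75th percentile on head than on tail arrays. Their medians were -4.39 to -4.13 and -3.52 to -3.47. On head arrays these probes were thus dimmer than Mex3c (mean -3.21), and on tail arrays they were slightly brighter than its mean of -3.69. This reference therefore lay near the background, as Mex3c did. Centred on these spike-ins, the 4 genes differed by 1.10 (Ndfip1) to 1.60 (Ndfip2), and the median of all probes was 0.54. Both of these scalings were chosen after the data had been seen.

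**Figure D4:**
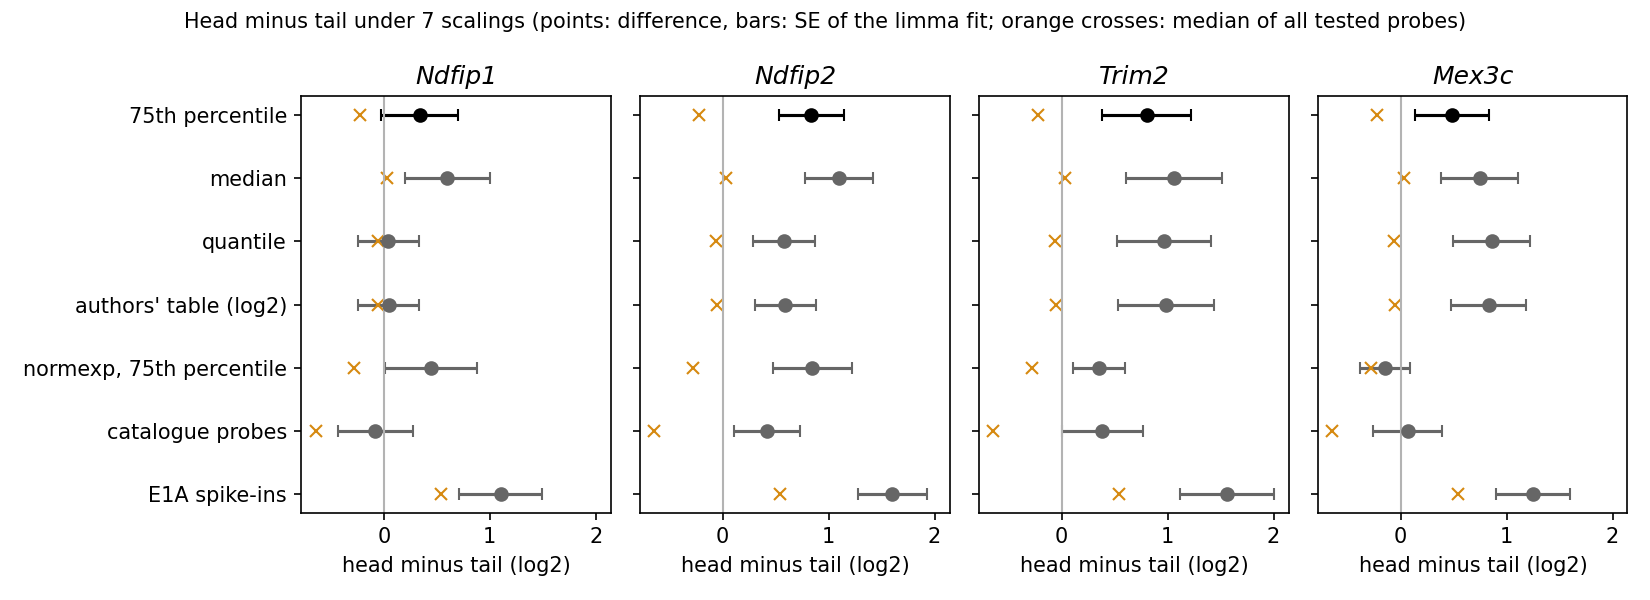
Head minus tail difference in log2 units (horizontal axis) of each gene under 7 scalings (rows), with the SE of the limma fit as bars and the median difference of all tested probes as an orange cross. Ndfip2 and Trim2 lie right of 0 in every row, while Mex3c is left of 0 with normexp (-0.15) and Ndfip1 with catalogue probes as the reference (-0.08).

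The place of a gene among all probes says how its difference compares with the rest of the array. Under the 75th percentile scaling the difference of Ndfip2 exceeded that of 93.4% of the tested probes, Trim2 92.5%, Mex3c 81.6% and Ndfip1 75.6%. Nearly all of these probes carry no gene name here. Mex3c (0.48) and Ndfip1 (0.34) lay below the median of 0.52 over the 23 other named genes. After quantile normalization these shares were 83.9% for Ndfip2, 94.5% for Trim2, 92.5% for Mex3c and 56.5% for Ndfip1. Many probes differed by as much as the 4 genes did, and nothing in these shares is particular to them.

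**Figure D5:**
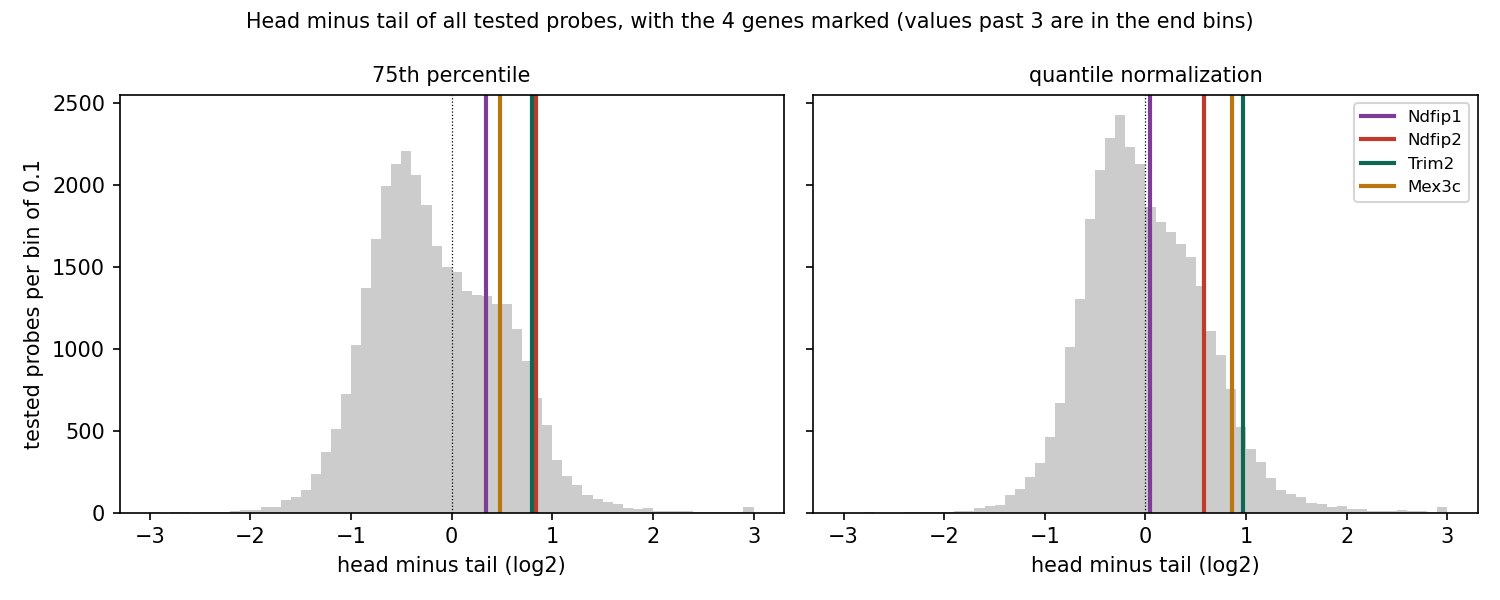
Number of tested probes (vertical axis) by head minus tail difference in bins of 0.1 log2 units (horizontal axis) after scaling to the 75th percentile (left) and after quantile normalization (right), with the 4 genes as coloured lines. All 4 lines lie right of 0 in both panels, and Ndfip1 moves from 0.34 on the left to 0.04 on the right.

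The slide of an array, inferred from scan identifiers alone, could not be separated from the region. The 3 tail arrays shared 1 scan identifier and the head arrays had 2 others, and each identifier was taken as a slide. With slide as a random block in the limma fit, Ndfip2 passed the threshold (difference 0.85, SE 0.21, limma adjusted p = 0.0346), together with 6057 other probes (18.9% of all probes in that fit). The correlation of arrays within a slide was estimated at -0.32. A negative value makes the mean of arrays on 1 slide count as more precise, and the SE of Ndfip2 was 0.31 without the block. Since no slide held both regions, this fit does not remove a slide effect, and passing in it is not read as a regional difference. The limma adjusted p of Ndfip2 ranged from 0.0346, in this fit, to 0.709 over its 17 alternatives.

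The likeness of patterns was measured as Pearson's r over the 6 arrays against the 26 other tested genes with a name, and it describes arrays that share a region, a number or a scaling. Ndfip2 was most like Slc28a2 (r 0.96), a nucleoside transporter, Nat1 (0.96), an arylamine N-acetyltransferase, and Magoh (0.85), a protein of the exon junction complex. Ndfip1 was most like Cdh2 (0.98), the adhesion protein N-cadherin, the uncharacterised LOC108352165 (0.95) and Trim2 (0.95). Trim2 was most like Ndfip1 (0.95), LOC108352165 (0.92) and Cdh2 (0.91). Mex3c was most like Odf2l (0.96), Pop7 (0.93), a subunit of RNase P, and Magoh (0.92).

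The paralogues were not among each other's closest genes. The likeness of Ndfip1 and Ndfip2 was 0.50, which placed Ndfip2 at rank 17 of the 26 genes for Ndfip1, and after quantile normalization it was -0.13. Named genes were alike in general, with a median r of 0.68 to Ndfip1 and 0.58 to Ndfip2, whereas over all 32107 other probes the medians were -0.27 and -0.38. Of these probes, 7.54% reached an r of at least 0.9 with Ndfip1, 2.74% with Ndfip2, 4.91% with Trim2 and 5.11% with Mex3c. After quantile normalization Slc28a2 was still first for Ndfip2 (0.98) and Odf2l for Mex3c (0.98), while Cdh2 was at rank 4 for Ndfip1. The likeness of Ndfip1 and Trim2 was then 0.73, which placed Trim2 at rank 7 for Ndfip1 and Ndfip1 at rank 11 for Trim2, whose closest genes were LOC108352165 (0.95) and Cdh2 (0.93).

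Other parts of the pathway could not be described. Of 41 further genes of the ubiquitin system that were looked for, among them the Nedd4 family ligases themselves, ubiquitin-conjugating enzymes, TRIM and Mex3 relatives, substrates and deubiquitinases, 0 had a named probe here. The same held for 27 marker genes of islet, acinar, duct, endothelial, stellate and immune cells, so the labelled cell type was not checked against its markers and the part of other cell types in these differences was not tested.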

How the data were processed

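The intensity values were deposited by the authors as Agilent Feature Extraction 11.0.1.1 scanner output, per the submitters' processing notes, of cRNA made by random priming, per the labels' protocols. The authors' deposited value table holds log2 values with equal quartiles in all 6 columns, and the steps behind them are not given in the sources used here. Control spots and outlier spots (130 to 177 per array) were left out, the log2 values of the remaining spots were averaged per probe, and the 75th percentile over probes was subtracted on each array. The probes tested were those well above background on at least 3 arrays, with at least 2 values per region. They were fitted with limma 3.58.1 in R 4.3.3 (lmFit, eBayes with trend, two-sided, Benjamini-Hochberg, threshold 0.05). The procedure was tested on simulated data, with independent probes and no effect of slide or replicate number. That test does not cover deviations that arrays share. Normexp used an offset of 50 on spot and background median signals, since a mean signal was absent. Within-array ratios were tested by exact permutation of the 6 arrays. Same-numbered arrays deviated together (correlation over probes 0.51, 0.75 and 0.29) and, with the cutting of each pancreas into both parts, were treated as pairs in 2 alternatives, the replicate block in limma and sign flips of the ratios. The limma fit and the permutation reported first leave the pairs out. The 4 genes, the lists and the rule for like genes (the 3 highest r) were chosen with earlier results of these data known. The number of arrays limits the precision.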

Additional observations from a re-analysis of the deposited data

How the results depend on the processing

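Quantile normalization, median centring, the authors' table, the median of spots, flagged spots kept, no filter on dim probes and leaving out each array kept the direction of all 4 genes, and none of these settings took a gene past the threshold. The replicate block changed no call of the 4 genes: its limma adjusted p was 0.0978 for Ndfip2, 0.0728 for Trim2, 0.175 for Mex3c and 0.399 for Ndfip1, and it took 1 probe in all past the threshold against 0 without it. With slide as a random block 6058 probes passed, Ndfip2 among them at 0.85. That fit had a within-slide correlation of -0.32 and does not remove a slide effect. With normexp 1 probe passed, and 2 passed with the authors' values. Leaving out 1 array gave 0 to 3 probes. Mex3c turned to -0.15 with normexp and Ndfip1 to -0.079 with arrays centred on catalogue probes. Leaving out 1 array gave 0.72 to 0.91 for Ndfip2, 0.49 to 1.17 for Trim2, 0.23 to 0.73 for Mex3c and 0.17 to 0.58 for Ndfip1.

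The ratio of Ndfip2 to Ndfip1 kept its sign in all 12 alternatives (0.32 to 0.72), as did that of Trim2 to Mex3c. The ratio of Ndfip2 to Trim2 turned to -0.38 after quantile normalization, to -0.39 in the authors' table and to between -0.27 and 0.39 with 1 array left out. With normexp it was 0.50. That of Ndfip2 to Mex3c turned to -0.28 after quantile normalization and to -0.24 in the authors' table, and it was 0.996 with normexp. With normexp the ratio of Trim2 to Ndfip1 was -0.094 and that of Mex3c to Ndfip1 -0.59, and the latter lay between -0.11 and 0.38 with 1 array left out. The causes were not tested. The signal of Mex3c was 1.45 to 4.37 times its background, and that of Trim2 was 2.77 to 16.1 times.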
